A study of Mus musculus with 24 samples.

Results

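Potassium channel genes carry symbols that begin with Kcn, and the mouse array used here held 95 such names on 143 probes. A gene entered the description when the scanner software called its brightest probe well above background in all 3 samples of any of the 8 groups, which kept 40 of the 95 names, out of 20025 kept genes in all. Potassium currents return the heart cell to its resting voltage after each beat, and each current is carried by its own pore subunits with accessory partners. In the mouse ventricle the fast transient outward current of the Kcnd and Kcnip2 proteins and the slower delayed rectifier currents, such as that of Kcna5, shape the early, short action potential, while Kcnj inward rectifiers and Kcnk two-pore channels hold the resting potential. Kcnh2 and Kcnq1 form the rapid and slow delayed rectifiers, best known from human long QT syndrome.

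RNA came from live cardiomyocytes isolated on a Langendorff apparatus from hearts of mice of 129SvEv/C57BL/6 background, labelled male and 6 weeks old. Top2b-/- mice carried a conditional deletion of Top2b, the gene of the DNA topoisomerase that doxorubicin poisons, in cardiomyocytes, and wild-type mice did not. The sources used here do not name the Cre driver, nor say whether the wild-type mice carried Cre. Doxorubicin at 25 mg/kg or PBS was given into the peritoneum, and hearts were taken 16 h or 72 h later. The 8 groups of 3 arrays were thus Top2b-/- doxorubicin, Top2b-/- PBS, wild-type doxorubicin and wild-type PBS, at each time. The labels do not say that arrays of a group came from separate animals, so the p-values measure the spread between these samples only. Doxorubicin is an anthracycline used against cancer whose use is limited by damage to the heart.

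A level is the log2 of the background-subtracted spot intensity minus the log2 of that array's 75th percentile intensity, so it compares arrays for 1 probe and not one gene with another. Differences were fitted with limma at each time apart, and adjusted p is Benjamini-Hochberg over all genes kept at that time, with a threshold of 0.05. Between 42.9% and 52.6% of the probes on an array were well above background. Top2b averaged 2.99 ± 0.27 in Top2b-/- and 4.20 ± 0.16 in wild-type arrays at 16 h (SD, n = 6 each), and 2.51 ± 0.34 against 3.43 ± 0.17 at 72 h, with no overlap at either time (two-sided exact permutation p = 0.00216 each). At 16 h, 4 arrays had a genotype characteristic that contradicts their title, which was followed here: replicate 1 of both doxorubicin groups and replicate 3 of both PBS groups. By title, the highest Top2b level of a Top2b-/- array at 16 h was 3.34 and the lowest of a wild-type array 4.03, these 4 arrays included. All 6 wild-type arrays at 16 h lay on slide 1 with Top2b-/- PBS replicates 1 and 2, while Top2b-/- PBS replicate 3 and the 3 Top2b-/- doxorubicin arrays lay on slide 2. At 72 h each slide held all 4 groups. Although all animals are labelled male, transcripts of the Y-linked Ddx3y were above background on 7 of the 24 arrays: the 3 wild-type PBS arrays, 1 wild-type doxorubicin and 1 Top2b-/- doxorubicin array at 16 h, and 1 array of each PBS group at 72 h.

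Of the 40 genes kept, 30 were well above background on all 24 arrays, and all 40 could be tested at both times. By current type they were 7 genes of the transient outward current, 9 delayed rectifier genes, 3 of the EAG family, 3 of the KCNQ and KCNE families, 9 inward rectifiers, 7 two-pore channels, the calcium-activated channel Kcnn2, and the long noncoding RNA Kcnq1ot1, which shares the name but codes for no channel. Of the 55 names left out, 34 were above background on no array, among them the smooth muscle channel genes Kcnma1 and Kcnmb1, and 14 on 1 to 3 arrays, among them Kcne1, the partner of Kcnq1. The names nearest to being kept were Kcnt1, above background on 8 arrays but never on all 3 of a group, and Kcnc4, Kcne3 and Kcne4, on 6 arrays each. The kept gene with the fewest such arrays was Kcna1, at 16 arrays and 3 full groups.

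Promoter sequences are shown for the 4 genes that stand for the main patterns and have a RefSeq entry in the tables used here: Kcnd2 and Kcnh2, whose transcripts fell after doxorubicin in wild-type cells, Kcnip2, the partner of Kcnd2, and Kcnj4, which rose. Each window of 300 bases runs 5′ to 3′ across the gene's start (RefSeq, GRCm38.p6), and capitals mark GGGCGG, the core of a GC box, or its reverse complement. The windows are chr6:21215096-21215395 on the plus strand for Kcnd2, and chr5:24329542-24329841, chr19:45816014-45816313 and chr15:79505192-79505491 on the minus strand for Kcnh2, Kcnip2 and Kcnj4.
Kcnd2: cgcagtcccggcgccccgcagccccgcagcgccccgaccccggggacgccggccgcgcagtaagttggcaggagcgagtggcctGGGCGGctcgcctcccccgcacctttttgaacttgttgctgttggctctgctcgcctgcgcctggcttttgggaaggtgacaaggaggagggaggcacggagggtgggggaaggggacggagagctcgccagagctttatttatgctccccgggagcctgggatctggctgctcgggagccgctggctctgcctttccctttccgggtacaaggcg
Kcnh2: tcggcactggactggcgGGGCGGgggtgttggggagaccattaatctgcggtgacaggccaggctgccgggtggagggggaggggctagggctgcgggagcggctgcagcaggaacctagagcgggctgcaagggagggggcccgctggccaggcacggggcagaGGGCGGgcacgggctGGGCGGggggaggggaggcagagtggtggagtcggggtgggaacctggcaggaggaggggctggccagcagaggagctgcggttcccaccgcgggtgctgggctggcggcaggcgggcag
Kcnip2: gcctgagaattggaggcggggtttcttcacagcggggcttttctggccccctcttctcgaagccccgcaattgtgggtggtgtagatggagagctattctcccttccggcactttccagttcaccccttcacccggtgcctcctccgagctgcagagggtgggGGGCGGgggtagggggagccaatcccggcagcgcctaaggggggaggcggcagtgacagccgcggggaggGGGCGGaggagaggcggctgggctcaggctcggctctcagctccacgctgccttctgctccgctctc
Kcnj4: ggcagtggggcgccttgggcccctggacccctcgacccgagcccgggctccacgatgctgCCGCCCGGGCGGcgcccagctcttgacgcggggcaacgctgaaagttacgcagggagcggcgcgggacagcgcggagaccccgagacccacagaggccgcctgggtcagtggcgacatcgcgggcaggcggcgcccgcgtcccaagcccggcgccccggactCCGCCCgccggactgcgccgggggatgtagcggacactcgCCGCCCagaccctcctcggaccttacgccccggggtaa
GGGCGG on either strand occurred 1 time in the Kcnd2 window, 3 times in Kcnh2, 2 times in Kcnip2 and 4 times in Kcnj4, where a match on each strand lay end to end. Over all 32851 promoter windows, 35.7% held it, and 16 of 29 windows of 25 kept Kcn genes did (55.2%). The core of the TATA box, TATAAA, stood in 6.9% of the Kcn windows, against 13.6% of all windows. A site of cardiac transcription factors such as Gata4, GATAAG, stood in 10.3%, against 7.44%. None of the 4 printed windows held either of these letter strings. The letters thus stood in the windows of genes that fell and of the gene that rose.

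In wild-type cardiomyocytes 16 h after doxorubicin, 15 of the 40 Kcn genes fell (14.3% of all genes) and 2 rose (13.6% of all genes), 1 of which, Kcnq1ot1, entered the test only through the doxorubicin group. The falls included pore subunits of several repolarising currents, among them Kcnk3, Kcnd2, Kcnd3, Kcnq1, Kcnh2, Kcnj11 and Kcnj12, while Kcna5, Kcnj2, Kcnj3 and Kcnj5 did not pass. The Kcnd3 and Kcnj12 calls were lost in 5 and 10 of 12 fits without 1 array. In Top2b-/- cardiomyocytes at the same time no Kcn gene passed the test, nor did any of the 18729 genes tested (0% by limma, with 799 at an unadjusted p under 0.05), and the response differed between the genotypes for 9 Kcn genes (11.4% of all genes). In either direction 42.5% of the Kcn genes passed in wild-type cells, against 27.9% of all 18729 genes tested. The median log2 difference was -0.39 over the Kcn genes and -0.03 over all genes. Every doxorubicin array lay below every PBS array for 17 Kcn genes (18.8% of all genes) and above for 2 (17.9%). Among the 32 Kcn genes above background on all 12 arrays of that time, 14 fell and 1 rose, beside 29.7% of all genes so filtered that passed in either direction.

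**Figure D1:**
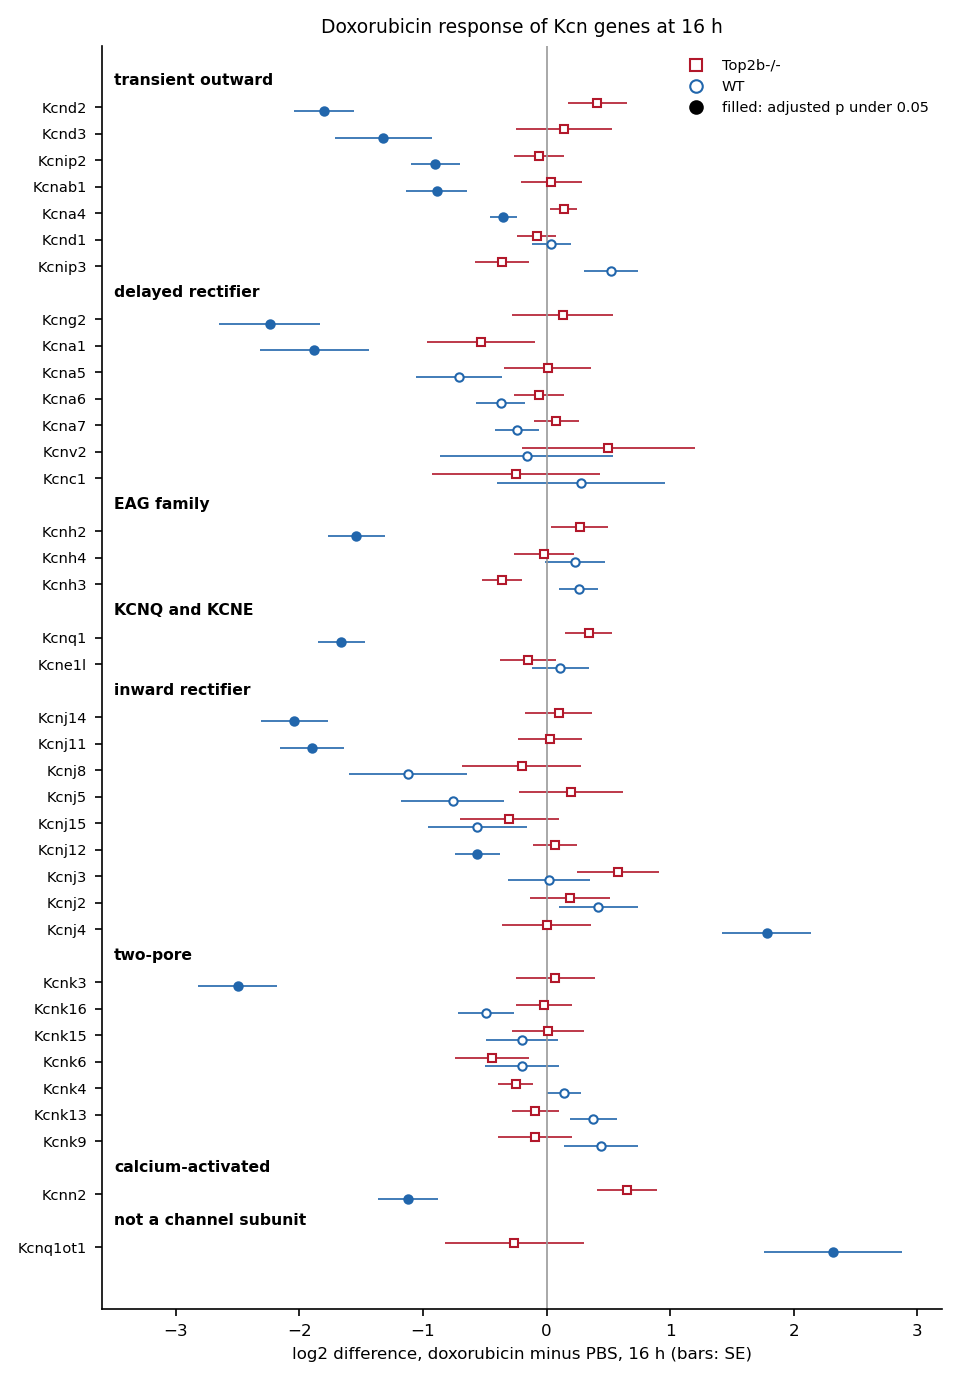
Each row is a Kcn gene, grouped by current type, and the horizontal axis is the log2 difference, doxorubicin minus PBS, at 16 h. Squares are Top2b-/- and circles wild-type cells (3 arrays a group, bars SE), filled where the adjusted p was under 0.05. Not every gene counted in the text is drawn, and of the genes drawn 16 circles and no square are filled.

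Among the genes of the transient outward current, 5 of 7 fell in wild-type cells and none rose, with a median of -0.89. Kcnd2 codes for the main pore subunit of the fast component in mouse ventricle, and its probe lies at chr6:21679569-21679628 (mm9, plus strand). Kcnd2 levels were 1.02, 1.02 and 1.57 in wild-type cells after doxorubicin, against 3.28, 2.75 and 2.98 after PBS. The highest doxorubicin array lay more than 1 log2 unit below the lowest PBS array, a mean fall of 3.48-fold (log2 -1.80 ± 0.24, SE, limma adjusted p = 0.000547). Kcnd2 in Top2b-/- cells was 2.22, 2.97 and 3.04 after doxorubicin, against 2.36, 2.35 and 2.29 after PBS, groups that overlapped, with a 95% interval of the difference of -0.11 to 0.93. The response of Kcnd2 differed between the genotypes by 2.21 ± 0.33 (limma adjusted p = 0.00378).

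Kcnd3, the second pore gene of this current, had levels of 0.07, 0.72 and 2.07 in wild-type cells after doxorubicin, against 2.42, 2.06 and 2.34 after PBS. Replicate 3 of the doxorubicin group lay within the PBS range, and the difference of -1.32 ± 0.39 passed (limma adjusted p = 0.0295) but the genotype difference did not (limma adjusted p = 0.113). The Kcnd3 call was lost in 5 of 12 fits without 1 array and 3 of 14 alternative fits, at -0.88 without wild-type doxorubicin replicate 1 and -0.85 without the 4 arrays of contradictory labels. Kcnip2, the calcium-binding partner without which the fast current is lost in mice, was 2.08, 1.66 and 1.40 after doxorubicin, against 2.55, 2.66 and 2.63 after PBS, in wild-type cells. The Kcnip2 groups did not overlap and the difference was -0.90 ± 0.20 (limma adjusted p = 0.00843). Kcnd3 in Top2b-/- cells was 1.86, 2.19 and 2.33 after doxorubicin, against 1.90, 1.97 and 2.10 after PBS. Kcnip2 there was 2.00, 1.95 and 2.27 after doxorubicin, against 2.29, 1.75 and 2.36 after PBS. Both genes overlapped between those 2 groups.

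Kcna4, the pore of the slow transient outward current, was 4.03, 4.05 and 4.04 after doxorubicin in wild-type cells, against 4.27, 4.33 and 4.56 after PBS. This was the smallest difference that passed, -0.35 ± 0.11 (limma adjusted p = 0.0414), and 8 of 14 alternative fits and 10 of 12 fits without 1 array lost it. Kcna4 in Top2b-/- cells was 3.86, 3.97 and 4.07 after doxorubicin, against 3.91, 3.85 and 3.73 after PBS. The beta subunit gene Kcnab1 fell in wild-type cells, with a difference of -0.89 ± 0.25 (limma adjusted p = 0.0256). Kcnd1 differed by 0.04 and Kcnip3, a neuronal relative of Kcnip2, by 0.52, neither past the threshold.

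Of the 9 delayed rectifier genes 3 fell in wild-type cells, among them Kcng2 and Kcna1. Kcng2 codes for a silent subunit that conducts only together with pores of another family. Kcng2 was -0.15, -0.27 and 1.71 in wild-type cells after doxorubicin, against 2.61, 2.69 and 2.72 after PBS. Replicates 1 and 2 lay close together near 0 and replicate 3 between them and the PBS arrays, and the fall was 4.74-fold (log2 -2.24 ± 0.41, limma adjusted p = 0.00294). A second Kcng2 probe differed by -2.07. The Kcng2 levels of Top2b-/- cells, 2.77, 2.99 and 2.99 after doxorubicin against 2.74, 2.76 and 2.85 after PBS, formed 1 narrow range. The genotype difference was 2.38 ± 0.58 (limma adjusted p = 0.0266), and 3 of 13 alternative fits and 9 of 12 fits without 1 array lost it.

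Kcna5, the pore of the ultrarapid current, was -1.86, -0.54 and -0.61 in wild-type cells after doxorubicin, against 0.15, -0.52 and -0.51 after PBS. Every Kcna5 doxorubicin array lay below every PBS array, but the difference of -0.71 ± 0.35 did not pass (limma adjusted p = 0.155). Kcna5 in Top2b-/- cells was -1.09, -1.35 and -1.41 after doxorubicin, against -1.50, -0.82 and -1.59 after PBS. Kcna1, a Shaker type pore gene better known from neurons, was not well above background on any wild-type doxorubicin array. It was -4.97, -4.79 and -5.04 there, against -3.15, -2.85 and -3.15 after PBS, and was at least 1.53-fold lower when the dimmest measurable signal stands in for the doxorubicin arrays (limma adjusted p = 0.0107). With normexp background correction the log2 difference was -0.32, under that bound, and did not pass (limma adjusted p = 0.23). Kcna6, Kcna7, Kcnv2 and Kcnc1 ranged from -0.37 to 0.28 and did not pass.

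Kcnh2, the pore of the rapid delayed rectifier, was 1 of 3 EAG family genes kept and fell in wild-type cells. Its probe lies at chr5:23825407-23825466 (mm9, minus strand). Kcnh2 levels were 0.37, 0.08 and 1.18 after doxorubicin, against 2.09, 1.91 and 2.26 after PBS. Replicate 3 was again the highest of the doxorubicin arrays, yet below every PBS array, and the fall was 2.91-fold (log2 -1.54 ± 0.23, limma adjusted p = 0.00116). Top2b-/- cells had Kcnh2 levels of 2.16, 2.19 and 2.22 after doxorubicin, against 1.78, 2.04 and 1.95 after PBS, and the genotype difference was 1.81 ± 0.33 (limma adjusted p = 0.00873). The neuronal relatives Kcnh3 and Kcnh4 differed by 0.26 and 0.23 in wild-type cells and did not pass.

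Kcnq1, the pore of the slow delayed rectifier, had the lowest adjusted p of all Kcn genes in wild-type cells. Its probe lies at chr7:150612887-150612946 (mm9, plus strand). Kcnq1 levels were 2.71, 2.25 and 3.06 after doxorubicin, against 4.40, 4.09 and 4.51 after PBS, and the groups were about 1 log2 unit apart at their closest. The fall was 3.16-fold (log2 -1.66 ± 0.19, limma adjusted p = 0.000262), and a second Kcnq1 probe differed by -1.65. Among Top2b-/- arrays Kcnq1 was 4.20, 4.30 and 4.38 after doxorubicin, against 3.99, 3.87 and 4.01 after PBS, with all 3 doxorubicin arrays above the PBS arrays but no pass of the test (95% interval -0.08 to 0.76). The genotype difference was 2.00 ± 0.27 (limma adjusted p = 0.00214). The accessory subunit gene Kcne1l did not pass, at 0.11, and a dimmer second probe of Kcne1l differed by -1.67.

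Kcnq1ot1 is transcribed from the opposite strand within the Kcnq1 locus and is known from imprinting, where it silences neighbouring genes on the paternal chromosome. Its probe lies at chr7:150440140-150440199 on the minus strand (mm9), opposite to that of Kcnq1. Kcnq1ot1 was -1.53, -1.27 and -3.36 in wild-type cells after doxorubicin, against -3.88, -3.86 and -5.38 after PBS. No wild-type PBS array was well above background for it, so the difference is only a bound, at least 2.77-fold on this scale, and replicate 3 of the doxorubicin group lay near the PBS arrays. Kcnq1ot1 entered the 16 h test only through the wild-type doxorubicin group, where it was high, so its pass is no support for a rise. With normexp background correction the log2 difference was 0.54 and did not pass (limma adjusted p = 0.102). A second probe, above background on 6 of the 24 arrays, differed by -0.41, so the probes disagreed. Top2b-/- cells had -3.27, -3.80 and -3.86 after doxorubicin, against -3.98, -3.13 and -3.04 after PBS, and the genotype difference did not pass (limma adjusted p = 0.062).

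**Figure D2:**
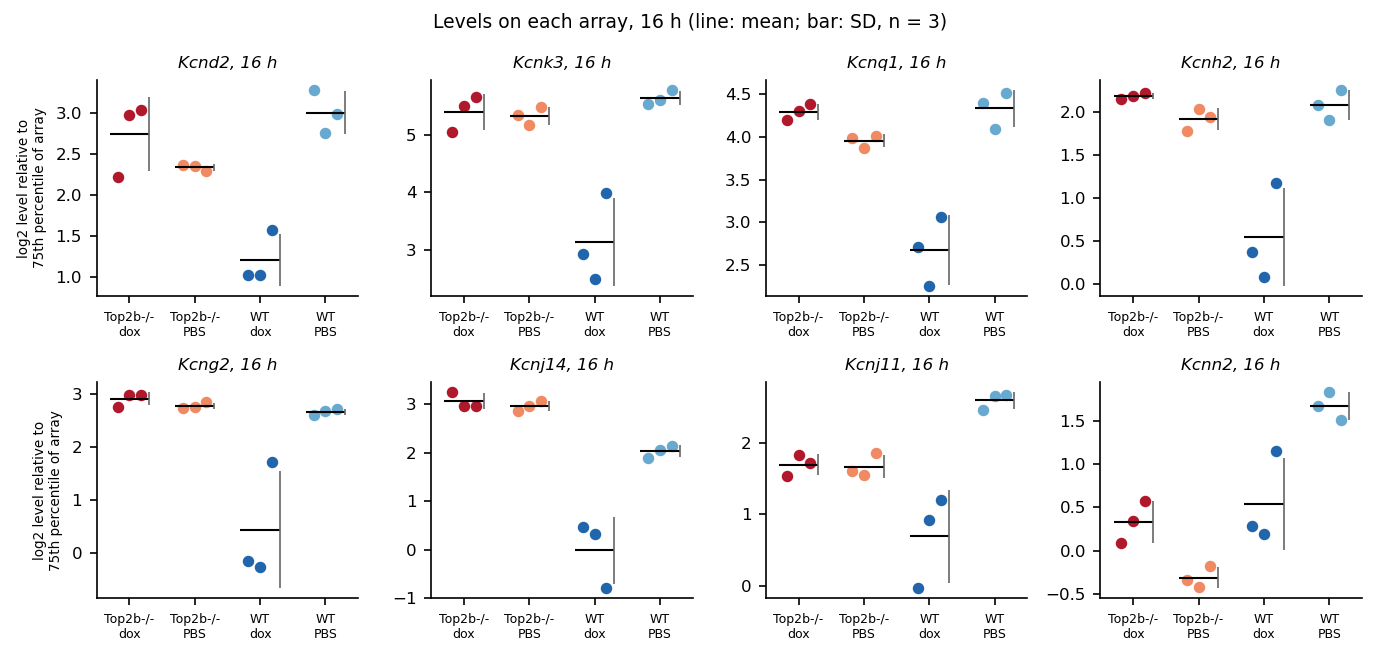
Points are single arrays at 16 h and the vertical axis is the log2 level relative to the array's 75th percentile, with lines at group means and bars of 1 SD (n = 3). For Kcnd2, Kcnk3, Kcnq1, Kcnh2, Kcng2 and Kcnj14 the wild-type doxorubicin arrays lie below all other groups, and for Kcnn2 the Top2b-/- PBS arrays are lowest.

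Among the 9 inward rectifiers, 3 fell and 1 rose in wild-type cells. Kcnj11 codes for the pore of the ATP-sensitive channel of the cardiomyocyte surface, which opens when ATP runs low. Kcnj11 was -0.04, 0.92 and 1.20 in wild-type cells after doxorubicin, against 2.46, 2.65 and 2.67 after PBS, without overlap. The fall was 3.73-fold (log2 -1.90 ± 0.26, limma adjusted p = 0.000708), and a second probe differed by -2.09. Kcnj11 in Top2b-/- cells was 1.53, 1.83 and 1.72 after doxorubicin, against 1.60, 1.55 and 1.85 after PBS, levels between those of the 2 wild-type groups. The genotype difference in response was 1.92 ± 0.37 (limma adjusted p = 0.0108). Kcnj8, the vascular ATP-sensitive pore, was -3.75, -2.07 and -2.34 in wild-type cells after doxorubicin, against -1.25, -1.84 and -1.71 after PBS. These groups did not overlap either, but the difference of -1.12 ± 0.48 did not pass (limma adjusted p = 0.106). Kcnj8 in Top2b-/- cells was -3.96, -2.72 and -2.25 after doxorubicin, against -2.99, -2.71 and -2.64 after PBS. In each genotype Kcnj8 was well above background on only 2 of 3 doxorubicin arrays. The sulfonylurea receptor genes Abcc9 and Abcc8, whose proteins surround these pores, differed by -0.06 and -0.09 in wild-type cells and did not pass.

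Of the 4 genes of the strong inward rectifier, Kcnj14 and Kcnj12 fell, Kcnj4 rose and Kcnj2 did not pass in wild-type cells. Kcnj14 was 0.46, 0.32 and -0.80 after doxorubicin, against 1.89, 2.06 and 2.14 after PBS, a 4.11-fold fall (log2 -2.04 ± 0.27, limma adjusted p = 0.000606). A second Kcnj14 probe differed by -1.94. The Top2b-/- levels of Kcnj14, 3.25, 2.96 and 2.97 after doxorubicin against 2.85, 2.97 and 3.06 after PBS, were above every wild-type array. The response differed between genotypes by 2.14 ± 0.39 (limma adjusted p = 0.00811). Kcnj12 was 1.81, 1.66 and 2.33 after doxorubicin in wild-type cells, against 2.47, 2.33 and 2.70 after PBS, a difference of -0.56 ± 0.18 (limma adjusted p = 0.0386) that 5 of 14 alternative fits and 10 of 12 fits without 1 array lost. Kcnj12 in Top2b-/- cells was 2.65, 2.61 and 2.48 after doxorubicin, against 2.42, 2.41 and 2.72 after PBS.

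Kcnj2, which carries most of the resting current of mouse ventricular cells, did not pass in either genotype. It was -0.84, -0.91 and -2.24 in wild-type cells after doxorubicin, against -1.96, -1.61 and -1.68 after PBS, with replicates 1 and 2 above the PBS arrays and replicate 3 below them (95% interval -0.30 to 1.13). Kcnj2 in Top2b-/- cells was -2.21, -1.74 and -1.79 after doxorubicin, against -1.88, -2.25 and -2.19 after PBS. Kcnj4 was the only channel gene that rose. It was -1.43, 0.19 and -0.53 in wild-type cells after doxorubicin, against -2.20, -2.58 and -2.33 after PBS, 3.44-fold higher (log2 1.78 ± 0.36, limma adjusted p = 0.00461). With normexp background correction the log2 difference was 0.89 (limma adjusted p = 0.0114). Top2b-/- cells had Kcnj4 levels of -1.06, -1.20 and -1.93 after doxorubicin, against -1.57, -1.32 and -1.29 after PBS, so both of these groups lay above the wild-type PBS arrays. The genotype difference of -1.78 ± 0.50 passed (limma adjusted p = 0.0465), and 8 of 13 alternative fits and 9 of 12 fits without 1 array each lost it.

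**Figure D3:**
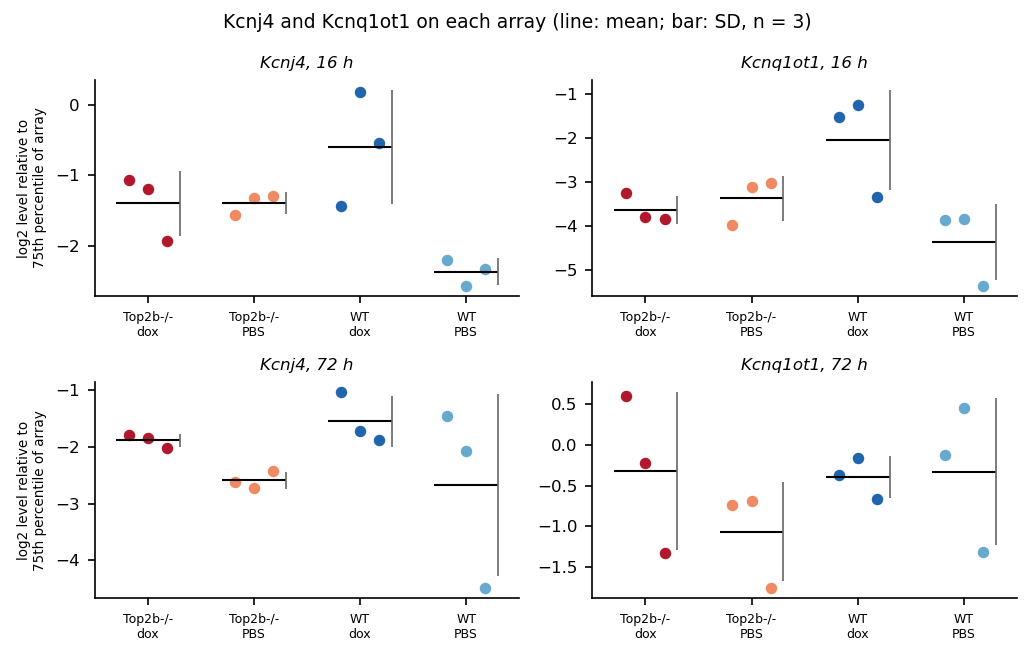
Points are single arrays for Kcnj4 and Kcnq1ot1 at 16 h and 72 h on the log2 level scale, with lines at group means and bars of 1 SD (n = 3). At 16 h the 3 wild-type doxorubicin arrays lie above the wild-type PBS arrays for both genes, and at 72 h these 2 groups overlap.

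Kcnj3 and Kcnj5 form the channel that acetylcholine opens through the muscarinic receptor to slow the heart, chiefly in atrial cells. Kcnj5 was 2.66, 3.36 and 4.87 in wild-type cells after doxorubicin, against 4.43, 4.22 and 4.51 after PBS. Replicate 3 lay above the PBS arrays and the other 2 below, and the difference of -0.76 ± 0.42 did not pass (limma adjusted p = 0.21). Kcnj5 in Top2b-/- cells was 4.20, 4.25 and 4.52 after doxorubicin, against 4.11, 4.11 and 4.15 after PBS. Kcnj3 was -1.17, -1.23 and -0.03 in wild-type cells after doxorubicin, against -0.80, -0.91 and -0.77 after PBS, and overlapped. Its Top2b-/- levels were -1.33, -0.27 and -0.57 after doxorubicin, against -1.14, -1.49 and -1.27 after PBS. Chrm2, the muscarinic receptor that gates this channel, fell in wild-type cells, with a difference of -1.81 ± 0.27 (limma adjusted p = 0.00112), and the genotype difference was 1.64 ± 0.39. The ninth inward rectifier, Kcnj15, differed by -0.56 and did not pass.

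Kcnk3, a two-pore background channel inhibited by extracellular acid, had the largest fall of any Kcn gene in wild-type cells. Its probe lies at chr5:30927090-30927149 (mm9, plus strand). Kcnk3 was 2.93, 2.50 and 3.99 after doxorubicin, against 5.54, 5.61 and 5.78 after PBS, 5.67-fold lower (log2 -2.50 ± 0.32, limma adjusted p = 0.000451). The doxorubicin arrays were spread more widely than the PBS arrays and all lay below them. Kcnk3 in Top2b-/- cells was 5.05, 5.50 and 5.65 after doxorubicin, against 5.34, 5.17 and 5.48 after PBS, and the genotype difference was 2.57 ± 0.45 (limma adjusted p = 0.00696). The other 6 two-pore genes, Kcnk16, Kcnk15, Kcnk6, Kcnk4, Kcnk13 and Kcnk9, ranged from -0.49 to 0.44 and none passed. Kcnk9 and Kcnk15 are the closest relatives of Kcnk3.

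Kcnn2, a small-conductance channel opened by calcium, fell in wild-type cells. It was 0.28, 0.19 and 1.15 after doxorubicin, against 1.67, 1.83 and 1.51 after PBS, without overlap (log2 -1.12 ± 0.24, limma adjusted p = 0.00603). In Top2b-/- cells it was 0.09, 0.34 and 0.57 after doxorubicin, against -0.34, -0.42 and -0.18 after PBS, where the doxorubicin arrays lay above the PBS arrays and the difference of 0.65 had an unadjusted p = 0.0196 in limma and an adjusted p of 1. The genotype difference was 1.77 ± 0.33 (limma adjusted p = 0.00985).

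In Top2b-/- cells at 16 h the count of 0 Kcn genes stood against 0% of all 18729 genes by the same limma test. At an unadjusted p under 0.05 there were 2, Kcnn2 and Kcnh3, and 7 of the 40 genes had groups that did not overlap, 4 higher (9.72% of all genes) and 3 lower (8.11%). The log2 differences ran from -0.53 to 0.65, with a median of 0. Every doxorubicin array of this comparison lay on slide 2 and PBS replicates 1 and 2 on slide 1, so slide and treatment are largely confounded in it. The 95% interval was -0.25 to 0.79 for Kcnh2, -0.50 to 0.71 for Kcnj14 and -0.63 to 0.77 for Kcnk3, and each left out the mean difference of that gene in wild-type cells.

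The response differed between genotypes for 9 of 40 Kcn genes at 16 h (22.5%, against 11.4% of all genes): 8 with a difference above 0 (6.2% of all genes) and Kcnj4 below 0 (5.23%). The 8 were Kcnk3, Kcng2, Kcnd2, Kcnj14, Kcnq1, Kcnj11, Kcnh2 and Kcnn2, and none of the falls in Kcnd3, Kcnip2, Kcna4, Kcnab1, Kcna1 and Kcnj12 differed past the threshold. All 3 Top2b-/- doxorubicin arrays shared slide 2 with only 1 other array, a Top2b-/- PBS array. Slide is thus largely confounded with doxorubicin in Top2b-/- cells, and so with this comparison. With slide in the model, the Top2b-/- response has PBS replicate 3 as its only reference, 1 of the 4 arrays of contradictory genotype labels. That fit cannot tell slide from the deviation of this 1 array. With slide as a block the 9 differences stayed between 1.64 and 2.42 in size, or -1.89 for Kcnj4, but only Kcnd2 (limma adjusted p = 0.0363) and Kcnq1 (0.028) passed. The other adjusted p values lay between 0.0694 and 0.174. Without the 4 arrays of contradictory genotype labels, 5 of the 9 remained (Kcnd2, Kcnq1, Kcnj11, Kcnj14 and Kcnj4), from 2 arrays a group. In that fit 6.14% of all genes passed.

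**Figure D4:**
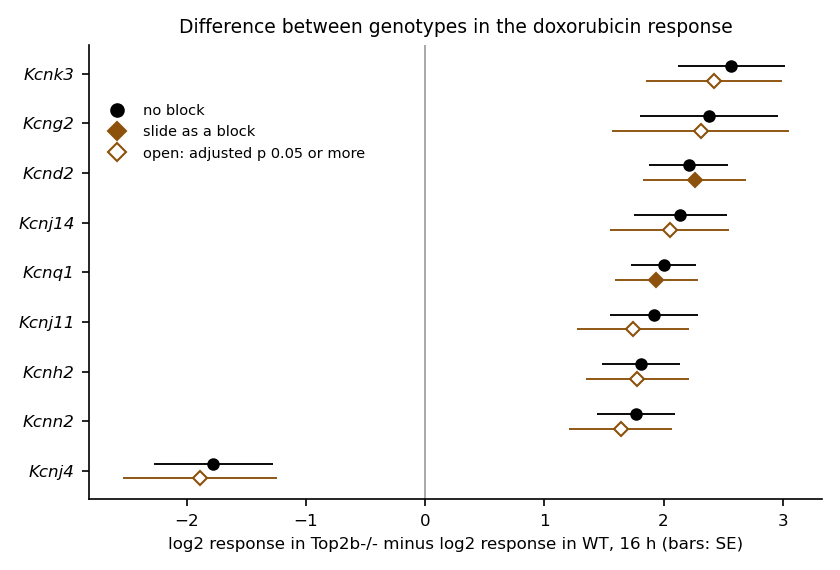
Each row is 1 of the 9 genes whose doxorubicin response differed between genotypes at 16 h, and the horizontal axis is the log2 response in Top2b-/- cells minus that in wild-type cells (bars SE). Filled circles are the fit without a block and diamonds the fit with slide as a block, filled only for Kcnd2 and Kcnq1. In the blocked fit the only Top2b-/- PBS reference is replicate 3, the 1 such array on slide 2.

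The wild-type comparison at 16 h lay within slide 1, so slide could not move with treatment there. Fitted on slide 1 alone, 13 of the 17 genes passed (17.5% of all genes), and Kcna4, Kcnab1, Kcnd3 and Kcnj12 did not. Without the 4 arrays of contradictory labels 8 of the 17 remained, namely Kcnd2, Kcnh2, Kcnip2, Kcnj11, Kcnj14, Kcnk3, Kcnq1 and Kcnj4. The total was 11 (19.1% of all genes). Y-linked transcripts were present on all 3 wild-type PBS arrays and on 1 of 3 wild-type doxorubicin arrays. With them as a covariate 14 of the 17 remained, Kcna4 and Kcnj12 being among those lost. In that fit 16 Kcn genes passed (28.2% of all genes). Among the wild-type doxorubicin arrays, replicate 3 was the nearest to PBS for 10 of the 15 genes that fell. Without that array 17 genes passed in wild-type cells, 15 of them the same (35.5% of all genes). The response then differed between the genotypes for 16 Kcn genes in place of 9, and for 25.3% of all genes in place of 11.4%.

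Markers of other cells moved in the same comparison. Of 7 smooth muscle and pericyte markers 5 fell in wild-type cells, and their summed level was 28.5 to 35.3 after doxorubicin, against 79.9 to 104 after PBS, on a linear scale where 1 is the array's 75th percentile. In Top2b-/- cells that sum was 77.4 to 134 after doxorubicin, against 94.1 to 114 after PBS. Of 7 fibroblast markers 4 fell (sum 22 to 50.2 after doxorubicin, against 24.2 to 35.8 after PBS), as did 2 of 6 endothelial markers (15.3 to 25.4, against 21.2 to 27.4). Of 4 neutrophil markers tested 3 rose (66.6 to 99.6, against 80.7 to 82.8), with Cxcr2 at no point above background. Of 6 cardiomyocyte markers only Pln fell (sum 4770 to 6010 after doxorubicin, against 5900 to 6650 after PBS), and none of 4 atrial markers passed (254 to 466, against 242 to 735). Of 4 conduction system markers, Hcn4 and Shox2 were above background on no array at 16 h and Cntn2 on no wild-type array. Tbx3, the only 1 tested, differed by 0 in wild-type cells and did not pass (limma adjusted p = 0.989). The part of these cells in the Kcn values was not tested, and in such bulk samples fewer cells of a type and less RNA per cell cannot be told apart.

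Genes of channel partners fell in wild-type cells at 16 h as well. From a list of 32 partners and regulators 28 could be tested, and 12 fell (14.3% of all genes) and none rose (13.6%) after doxorubicin, with a median of -0.44, against -0.03 over all genes. Fhl2, a LIM protein of the sarcomere that binds the Kcne1 protein, differed by -1.58 ± 0.15 (limma adjusted p = 8.33e-05), and Rnf207, a ubiquitin ligase linked to the human QT interval, by -1.65 ± 0.15 (8.35e-05). Among the other genes that fell, the scaffold gene Ank2 differed by -1.09, Gnb5, a G protein beta subunit, by -1.13, and Popdc2, which binds a two-pore channel, by -1.50. Irx4, a ventricular transcription factor, also fell, at -1.08, while Klf15, a regulator of Kcnip2, differed by 0.43 and did not pass. For 8 of the 28 the response differed between genotypes, all above 0 (6.2% of all genes), among them Fhl2 (1.62) and Rnf207 (1.76). None passed in Top2b-/- cells.

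Without doxorubicin, 3 Kcn genes were lower in Top2b-/- than in wild-type cells at 16 h after PBS and none was higher (5.68% of all genes were lower and 6.66% higher, 12.3% in all). Kcnn2 differed by -1.98 ± 0.24 on the log2 scale (limma adjusted p = 0.000786), with -0.34, -0.42 and -0.18 in Top2b-/- cells, against 1.67, 1.83 and 1.51 in wild-type cells. Kcna4 differed by -0.56 ± 0.11 (limma adjusted p = 0.0113) and Kcnj11 by -0.93 ± 0.26 (limma adjusted p = 0.0449), which 6 of 14 alternative fits and 9 of 12 fits without 1 array lost. The genotypes did not overlap for 18 of 40 Kcn genes that were lower on every Top2b-/- array, these 3 included (24.5% of all genes). Another 4 were higher on every Top2b-/- array (23.9%). With slide as a block, and within slide 1, only Kcnn2 passed (limma adjusted p = 0.00352 and 0.0118), beside 6.43% and 4.08% of all genes. Both fits set aside Top2b-/- PBS replicate 3, the only PBS array on slide 2, so they are not separate checks. Every wild-type PBS array at 16 h and no Top2b-/- PBS array carried Y-linked transcripts, so within the PBS arrays genotype and Y-linked status cannot be told apart. With Y-linked status as a covariate, whose effect that fit takes from the doxorubicin arrays, 8 Kcn genes passed, the 3 included, 1 higher and 7 lower (9.47% of all genes). The comparison also shares its wild-type PBS arrays with the doxorubicin comparison above. Among 4 atrial markers Nppa, the atrial natriuretic peptide gene, was higher in Top2b-/- PBS cells (2.44 ± 0.37, limma adjusted p = 0.003). The other 3 had differences below 0 that did not pass, -1.88 for Myl4, -1.80 for Myl7 and -2.49 for Sln, with a list median of -1.84. The list's sum, 1570 to 1820 in Top2b-/- PBS cells, against 242 to 735 in wild-type PBS cells, thus ran against its median. Of 7 fibroblast markers 4 were higher (45.3 to 97, against 24.2 to 35.8). Of 6 endothelial markers 2 were lower, Emcn and Tie1 (17 to 21.1, against 21.2 to 27.4), with a median of -0.93. Of 7 smooth muscle and pericyte markers Myh11 and Tagln were lower and Cspg4 higher (94.1 to 114, against 79.9 to 104). The conduction system marker Tbx3 was lower (-0.75, limma adjusted p = 0.0344). Of 5 Schwann and neuron markers tested Sox10 was lower (-1.78, limma adjusted p = 0.00124) and none was higher, with a median of 0.41. The part of these cells in the Kcn values was not tested.

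At 72 h, 2 of the 40 Kcn genes were lower in wild-type cells after doxorubicin (1.67% of 19646 genes) and none was higher (0.977%, and 2.65% in either direction). Kcnd2 was again among them, at 1.60, 0.42 and 0.97 after doxorubicin, against 2.85, 2.60 and 2.56 after PBS (log2 -1.67 ± 0.26, limma adjusted p = 0.025). The 2 groups stood about 1 log2 unit apart at their closest. Among Top2b-/- arrays Kcnd2 was 2.01, 2.22 and 2.27 after doxorubicin, against 2.80, 2.57 and 2.29 after PBS. The times lay on different slides and were not compared. No genotype difference in response passed at 72 h, and for Kcnd2 it was 1.29 (95% interval 0.47 to 2.11, limma adjusted p = 0.702).

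**Figure D5:**
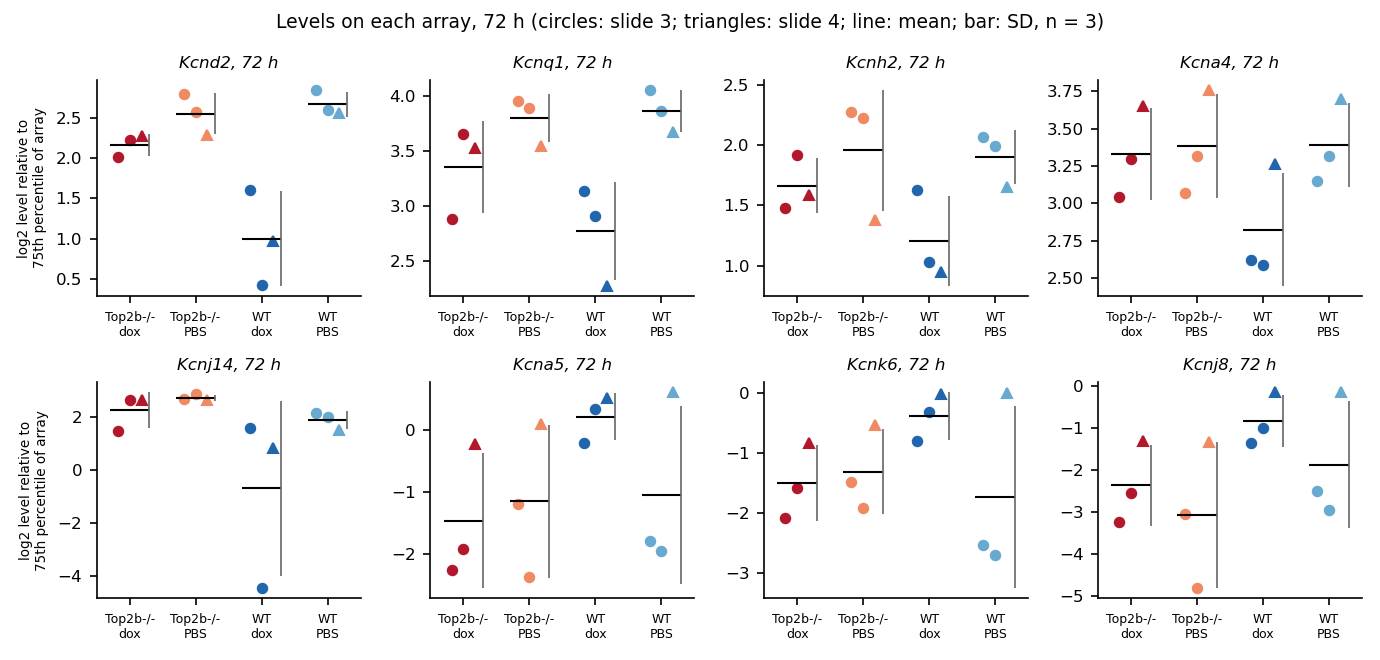
Points are single arrays at 72 h on the log2 level scale, circles on slide 3 and triangles on slide 4, with lines at group means and bars of 1 SD (n = 3). Kcnd2, Kcnq1, Kcnh2 and Kcna4 have their lowest mean in the wild-type doxorubicin group, while for Kcna5, Kcnk6 and Kcnj8 the slide 4 array is the highest of each of the 4 groups.

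With slide as a block, 6 of 40 Kcn genes passed in wild-type cells at 72 h, 1 higher and 5 lower, beside 13.1% of all genes in the same fit. The lower ones included Kcnd2, Kcnq1 (-1.10, limma adjusted p = 0.0242) and Kcna4 (-0.57, 0.0251), and the higher one was Kcnk6 (1.35, 0.0447). Within slide 3 alone Kcnd2 was lower and Kcna5 and Kcnk6 were higher, beside 4.04% of all genes that passed. Slide 4 held 1 array a group and gave no test. Y-linked transcripts were on 1 wild-type PBS array and no wild-type doxorubicin array at 72 h. With them as a covariate neither gene passed (0.107% of all genes). Leaving out 1 array gave from 0 to 5 genes, beside 0.00509% to 7.64% of all genes. The count was 0 without any 1 of wild-type doxorubicin replicate 3 or 4 or wild-type PBS replicate 2 or 3. It was 1 without Top2b-/- doxorubicin replicate 4 or any 1 Top2b-/- PBS array. It was 4 without wild-type PBS replicate 4 and 5 without wild-type doxorubicin replicate 2.

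Over all 40 genes the groups were apart for 8 that were lower (16.3% of all genes) and 1 that was higher (9.17%) in wild-type cells at 72 h, most of them without passing the test. Kcnq1 was 3.14, 2.91 and 2.27 after doxorubicin, against 4.06, 3.87 and 3.68 after PBS (limma adjusted p = 0.0554). These groups did not overlap. Kcnq1 in Top2b-/- cells was 2.88, 3.66 and 3.53 after doxorubicin, against 3.96, 3.89 and 3.55 after PBS. Kcnh2 in wild-type cells was 1.63, 1.03 and 0.95 after doxorubicin, against 2.07, 1.99 and 1.65 after PBS, just short of overlap. Kcnh2 in Top2b-/- cells was 1.48, 1.92 and 1.59 after doxorubicin, against 2.27, 2.22 and 1.38 after PBS.

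Kcnk3, which had fallen most at 16 h, stood at 5.04, 4.56 and 4.84 in wild-type cells after doxorubicin, against 5.26, 5.57 and 5.30 after PBS, a difference of -0.57 ± 0.23 (limma adjusted p = 0.173). Kcnk3 in Top2b-/- cells was 5.71, 5.42 and 4.88 after doxorubicin, against 5.34, 5.58 and 4.99 after PBS. Kcnj11 was 2.68, 2.69 and 2.58 in wild-type cells after doxorubicin, against 2.84, 3.18 and 2.38 after PBS. These groups overlapped, and the 95% interval was -0.77 to 0.47. Kcnj11 in Top2b-/- cells was 2.91, 2.14 and 1.75 after doxorubicin, against 1.98, 2.15 and 1.85 after PBS. Kcng2 differed by -0.58 in wild-type cells, also without passing.

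The remaining subunits of the transient outward current did not pass at 72 h. Kcnd3 was 1.95, 1.92 and 1.77 in wild-type cells after doxorubicin, against 2.57, 2.19 and 2.01 after PBS. Kcnip2 was 2.17, 1.64 and 2.05 after doxorubicin in the same cells, against 2.14, 2.46 and 2.13 after PBS. The Kcnd3 groups did not overlap and the Kcnip2 groups did (limma adjusted p = 0.344 and 0.492). Kcnd3 in Top2b-/- cells was 1.82, 1.89 and 1.45 after doxorubicin, against 2.03, 1.78 and 1.21 after PBS. Kcnip2 there was 3.22, 3.05 and 2.37 after doxorubicin, against 2.62, 2.85 and 2.45 after PBS. Neither gene separated the Top2b-/- groups. For Kcna4, wild-type cells had 2.62, 2.59 and 3.26 after doxorubicin, against 3.15, 3.32 and 3.70 after PBS, and replicate 4, on slide 4, was the highest in every group. Kcna4 in Top2b-/- cells was 3.04, 3.30 and 3.65 after doxorubicin, against 3.07, 3.32 and 3.76 after PBS.

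The inward rectifiers at 72 h held 1 array far from its group. Kcnj14 was 1.58, -4.46 and 0.82 in wild-type cells after doxorubicin, against 2.14, 2.00 and 1.50 after PBS, and replicate 3 was the array of the 24 on which the gene was not well above background. The second Kcnj14 probe gave a mean difference of -2.06 and was not tested by itself. The first gave -2.56 and did not pass (limma adjusted p = 0.226). Kcnj14 in Top2b-/- cells was 1.45, 2.64 and 2.63 after doxorubicin, against 2.65, 2.85 and 2.62 after PBS. Kcnj2 was -1.61, -2.65 and -1.96 in wild-type cells after doxorubicin, against -1.10, -1.29 and -2.02 after PBS. Kcnj12 was 2.28, 1.48 and 1.07 after doxorubicin there, against 2.65, 2.61 and 1.84 after PBS. Both genes overlapped between these groups. Among Top2b-/- arrays Kcnj2 was -0.78, -1.37 and -2.01 after doxorubicin, against -1.33, -1.24 and -2.26 after PBS. Kcnj12 there was 2.57, 2.23 and 2.36 after doxorubicin, against 2.17, 2.31 and 2.27 after PBS, which again overlapped.

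The acetylcholine-gated subunits, Kcnj3 and Kcnj5, did not pass at 72 h. Kcnj3 was -0.19, -1.06 and -0.81 in wild-type cells after doxorubicin, against -0.13, -0.38 and -0.60 after PBS. Kcnj5 was 3.75, 3.47 and 3.46 after doxorubicin in those cells, against 4.03, 3.74 and 3.77 after PBS. The Kcnj3 groups overlapped, and the Kcnj5 groups did so by a narrow margin. Kcnj3 in Top2b-/- cells was -0.53, -0.71 and -0.95 after doxorubicin, against -0.05, -0.40 and -0.85 after PBS. Kcnj5 there was 4.15, 3.65 and 3.92 after doxorubicin, against 4.06, 4.03 and 3.81 after PBS. Kcnj4, which had risen at 16 h, was -1.03, -1.72 and -1.88 in wild-type cells after doxorubicin, against -1.46, -2.07 and -4.50 after PBS. Wild-type PBS replicate 4 lay far below the others, and the gene was well above background on only 2 of these 3 PBS arrays. Kcnj4 in Top2b-/- cells was -1.79, -1.84 and -2.02 after doxorubicin, against -2.61, -2.73 and -2.43 after PBS, apart from each other but not past the test (limma adjusted p = 1).

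Kcna5 and Kcnj8 split by slide at 72 h. Kcna5 was -0.21, 0.35 and 0.53 in wild-type cells after doxorubicin, against -1.79, -1.96 and 0.62 after PBS. Kcnj8 was -1.36, -0.99 and -0.14 after doxorubicin in those cells, against -2.50, -2.96 and -0.15 after PBS. On slide 3 both genes were higher after doxorubicin, while on slide 4 the single arrays of the 2 treatments lay within 0.1 of each other. Kcna5 in Top2b-/- cells was -2.27, -1.92 and -0.22 after doxorubicin, against -1.19, -2.38 and 0.11 after PBS. Kcnj8 there was -3.25, -2.54 and -1.32 after doxorubicin, against -3.06, -4.83 and -1.33 after PBS, where it was well above background on only 2 of 3 arrays. The slide 4 array was the highest of its group in every case. The summed fibroblast markers ran from 51.3 to 133 on the wild-type doxorubicin arrays, against 21.5 to 77 on the wild-type PBS arrays, and the smooth muscle and pericyte markers from 29.1 to 67.8, against 24.6 to 73.6. The endothelial markers summed to 26.5 to 40.4, against 22 to 35, with a median difference of 1.51 and none of 6 past the test. Of 4 neutrophil markers tested 2 were higher, S100a8 and S100a9, while the list's sum was 129 to 230 after doxorubicin, against 104 to 247 after PBS. The part of these cells in the Kcn values was not tested.

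In Top2b-/- cells no Kcn gene passed at 72 h after doxorubicin by limma, as for all 19646 genes (0%), with 1 at an unadjusted p under 0.05, Kcnn2 (-0.88). Groups were apart for 2 Kcn genes that were lower (4.23% of all genes) and 2 that were higher (2.84%). Kcnn2 was -0.68, -0.22 and -0.35 in Top2b-/- cells after doxorubicin, against 0.81, 0.59 and -0.02 after PBS. Wild-type cells had 0.74, 0.00 and -0.91 after doxorubicin, against 1.29, 0.79 and 0.90 after PBS, and in both genotypes the doxorubicin arrays lay below the PBS arrays. The interaction at 72 h gave 0 genes (0% of all) in limma and 2 at an unadjusted p under 0.05, among them Kcnd2. Between genotypes after PBS 0 Kcn genes passed in limma (1.07% of all genes were lower and 1.05% higher, 2.12% in all), with 3 at an unadjusted p under 0.05, Kcnj11, Kcnd3 and Kcnv2. The genotypes did not overlap for 6 Kcn genes that were lower (8.41% of all genes) and 1 that was higher (11.3%). With the replicate number as a block, Kcnv2, a silent subunit gene, was lower in Top2b-/- PBS cells, with a difference of -1.07 (limma adjusted p = 0.00894). From the partner list, 5 of 28 genes were lower in wild-type cells after doxorubicin at 72 h (1.67% of all genes), among them Fhl2 (-1.21), Adora1 (-1.21) and Cav3 (-0.61), and none was higher.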

How the data were processed

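RNA of 24 samples was hybridised in 1 colour (Cy3) to mouse Agilent arrays, and per the file headers the authors deposited Feature Extraction output (version 10.7.3.1, probe positions in mm9) with a background-subtracted spot intensity for each of 59305 non-control spots. The authors also deposited a value table, found here to hold the ratio of that intensity to the array median, which was not used in the fits. No spot was saturated, and 89 to 277 outlier spots an array were set missing. Here each intensity was put on a log2 scale and the array's 75th percentile (146 to 282) subtracted. The log2 values are thus this work's own, from the deposited intensities. The number of arrays limits the precision.

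Spots of 1 probe were averaged, and the probe with the highest mean over all arrays stood for its gene. A gene was tested at a time when that probe passed the scanner's background test in all 3 samples of 1 or more of that time's 4 groups. limma 3.58.1 in R 4.3.3 fitted the 4 groups of each time (12 arrays, 8 residual degrees of freedom). Groups followed the titles. Adjusted p values are limma's, after Benjamini-Hochberg over all genes tested at that time. On simulated data with 100 genes at each size, the 16 h wild-type comparison recovered 86 changes of log2 2 and 58 of log2 1 over 18721 genes, and the 72 h one 82 and 41 over 19551. The simulation changed 200 genes and drew independent normal noise with 1 spread per gene. In the real 16 h wild-type comparison 5225 genes passed, so the simulated recovery does not give the power of the real tests. A bound written "at least" takes the brighter group's mean over the lowest signal well above background on each dim array.

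Alternatives were other scalings and background corrections (normexp with offset 50), other filters, slide, Y-linked status and replicate number in the model, and samples left out. Deviations from the group mean had a positive correlation r in every same-numbered pair for Top2b-/- doxorubicin and PBS. These r were 0.175, 0.293 and 0.118 at 16 h and 0.416, 0.275 and 0.73 at 72 h. The 2 PBS groups at 72 h also had a positive r in every pair (0.369, 0.352 and 0.546). So did the 2 doxorubicin groups at 72 h (0.26, 0.168 and 0.345). Wild-type PBS with Top2b-/- doxorubicin, and wild-type doxorubicin with Top2b-/- PBS, did at both times, but with r as low as 0.004 and 0.011. Wild-type doxorubicin and PBS did not (lowest r -0.124 at 16 h, and 0.482, -0.000393 and 0.415 at 72 h). Over all groups at 16 h the median r was 0.0625 for same-numbered pairs and -0.0287 for other pairs, which reached 0.258. At 72 h the medians were 0.352 and -0.239, with other pairs up to 0.364. The main fit paired no samples. At 72 h replicate 4 alone lay on slide 4, so pairing and slide cannot be fully told apart there.

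The Kcn genes, current types, partner list and marker lists were chosen with earlier results of these data known. Genes named with every array's value were core subunits of each cardiac current and those with the largest called differences. Of the 40 genes, 38 matched RefSeq by accession and the others by symbol. Promoters absent from the table used, and those of genes on chromosome 18, are not shown. Exon positions were not looked up, for lack of an annotation of mm9. Some genes counted in the totals are not reported here by name.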

Additional observations from a re-analysis of the deposited data

Results flagged for a closer look

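For 9 Kcn genes the response to doxorubicin at 16 h differed between the genotypes in limma's test of the difference itself. The response in Top2b-/- cells minus that in wild-type cells was 2.57 for Kcnk3, 2.38 for Kcng2, 2.21 for Kcnd2, 2.14 for Kcnj14 and 2.00 for Kcnq1 on the log2 scale. It was 1.92 for Kcnj11, 1.81 for Kcnh2 and 1.77 for Kcnn2, and -1.78 for Kcnj4. In Kcnn2 the Top2b-/- response was itself above 0 (0.65), starting from a PBS level that was lower than in wild-type cells. Slide 2 held all Top2b-/- doxorubicin arrays and no wild-type array, and its part in these differences was not tested beyond the fit with slide as a block. That fit has Top2b-/- PBS replicate 3 as its only Top2b-/- PBS reference.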

How the results depend on the processing

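The alternatives were run for the called Kcn differences, the Kcn counts and Top2b, and none of these changed direction. In wild-type cells at 16 h, 17 Kcn genes passed (27.9% of all genes), and 11 without the 4 samples of contradictory labels (19.1%). Without 1 array 13 to 17 passed, beside 19.4% to 35.5% of all genes. Kcnd2, Kcnh2, Kcnip2, Kcnj11, Kcnj14, Kcnk3, Kcnq1 and Kcnj4 passed in every such fit. Of the 9 genotype differences in response (11.4% of all genes), 2 remained with slide as a fixed block. Without the samples of contradictory labels 5 genes passed (6.14%). Without 1 array 7 to 16 passed, beside 5.4% to 25.3% of all genes. Between genotypes after PBS at 16 h, 3 passed (12.3% of all genes), but 8 with Y-linked status as a covariate (9.47%) and 7 with normexp background (13.7%). The count was 5 with slide as a random block (13%) and 5 over genes above background on all 12 arrays (13.2%). It was 1 with slide as a fixed block (6.43%) and 1 within slide 1 (4.08%), fits that both set aside Top2b-/- PBS replicate 3. Without 1 array it was 1 to 8, beside 5.09% to 20.5% of all genes. The 2 genes in wild-type cells at 72 h (2.65% of all genes) became 0 with the Y-linked covariate (0.107%) or no filter on dim probes (0.0631%). The count was 4 with array median scaling (4.55%) or slide as a random block (10.2%), and 6 with slide as a fixed block (13.1%). Without 1 array it was 0 to 5, beside 0.00509% to 7.64% of all genes. With the replicate number as a block, 6 passed there (16.1% of all genes), where same-numbered samples did not have a positive r in every pair. With it, 1 passed between genotypes after PBS at 72 h (4.54% of all genes), where the count was 0 with slide as a fixed block (4.03%). Replicate 4 alone lay on slide 4 at 72 h, and whether the numbers pair samples was not tested. The replicate block moved no other count by over 1.5 times. Top2b-/- cells gave 0 after doxorubicin in every fit. Median scaling moved the median of all genes to 0.11 in Top2b-/- cells at 16 h (0.01 before), to 0.12 for the genotype difference (0.00) and to -0.18 in wild-type cells at 72 h (-0.07). Signal limits Kcna1, Kcnq1ot1, Kcnc1, Kcnj4, Kcnj8, Kcnj14, Kcnj15, Kcnk9, Kcnk15 and Kcnk16, whose probes were not well above background on some arrays. The cause of these changes was not tested.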
